A study of Homo sapiens with 12 samples.

Results

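The proteasome is the protease complex that degrades ubiquitin-tagged proteins, and its subunits carry the gene symbols PSMA, PSMB, PSMC, PSMD, PSME, PSMF and PSMG followed by a number. Members were all genes whose symbol has that form, and 48 such symbols had a probe on the array. A member counted as measured when a probe had a detection p under 0.01 on at least 3 arrays, and the brightest such probe stood for the gene. This left 43 of the 48 symbols among the 10710 genes tested. Of these 43, 41 encode proteasome subunits, activators or assembly factors and are described here. The other two were kept out of all counts. PSMC3IP, a meiotic recombination factor, shares only the name. PSME3IP1 binds the activator PSME3 and is not a subunit. The thymic core subunit PSMB11, the testis core subunit PSMA8, the inhibitor PSMF1 and the antisense RNAs PSMD6-AS2 and PSMG3-AS1 were detected on fewer than 3 arrays. PSMB9 was detected on exactly 3 arrays, and PSMD6-AS2 on 1. The annotation used names no probe for PSMA7, PSMC5, PSMD7 and PSMD13, which were not analysed here.

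The cells were VCaP, a human cell line from a bone metastasis of prostate cancer that depends on androgen. They stood in medium with 2.5% charcoal-stripped serum, which removes steroids, for 100 h before RNA extraction. All carried an siRNA pool for 96 h. There were 4 groups of 3 arrays. They were siPIAS1 with 100 nM testosterone for 16 h, siSCR (control pool) with testosterone, siPIAS1 without testosterone and siSCR without testosterone. PIAS1 is a SUMO E3 ligase that binds the androgen receptor. The comparisons ask how the androgen response depends on it. Nothing in the sample labels says that replicates were separate cultures, so p-values measure only the spread between these samples.

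The 26S proteasome joins a barrel, the 20S core, to a cap, the 19S particle. The core is a stack of alpha and beta rings, and the beta subunits PSMB5, PSMB6 and PSMB7 cut peptide bonds. The cap binds ubiquitin chains, removes them and threads the unfolded protein into the core. Interferon induces PSMB8, PSMB9 and PSMB10, which replace PSMB5, PSMB6 and PSMB7 in newly built cores to form the immunoproteasome, a source of peptides for MHC class I. The factor NFE2L1 raises subunit genes together when proteasome activity is short.

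The arrays detected 32.5% to 36.0% of their probes, with a median raw intensity of 93.7 to 110. PIAS1 read 10.52 to 10.83 in siPIAS1 cells with testosterone, against 11.32 to 11.47 in siSCR cells with testosterone (normalized log2 signal, range of 3 arrays). Without testosterone it read 8.97 to 9.23 in siPIAS1 cells and 10.25 to 10.37 in siSCR cells. Replicate 3 of siPIAS1 with testosterone stood apart: its mean correlation with its own group was 0.978, against 0.986 to 0.996 for the 11 other arrays. Of the 41 members, 13 deviated by more than 0.4 log2 units on it from its group (the mean of the remaining arrays), against 0 to 6 on each other array (plot of deviations by array). The extremes on it were PSMA2 at -0.998 and PSMG3 at 1.01, so called or near-threshold values that moved by over 1.5 times without it are also given without it. Of 10 luminal prostate markers 8 were measured, with a summed linear signal of 30920 to 35450 in siPIAS1 with testosterone, 41090 to 41100 in siSCR with testosterone, 21940 to 23370 in siPIAS1 and 17710 to 19680 in siSCR. Of 10 immune markers 3 were measured (CD14, CD68 and LYZ), while PTPRC, CD3E, CD2, MS4A1, ITGAM and NKG7 were detected on 0 arrays. The summed linear signal of these 3 immune markers was 1296 to 1395 in siPIAS1 with testosterone, 689.5 to 772.1 in siSCR with testosterone, 719.7 to 1017 in siPIAS1 and 757.6 to 891.5 in siSCR. LYZ made the difference, being detected on the 3 arrays of siPIAS1 with testosterone and on no other. Of 6 fibroblast markers only LUM was measured, at 25.8 to 32.8 in siPIAS1 with testosterone and 27.6 to 31.9 in siSCR with testosterone, against 388.3 to 401.1 in siPIAS1 and 255.3 to 307.9 in siSCR (linear signal). Their part in the results below was not tested.

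**Figure D1:**
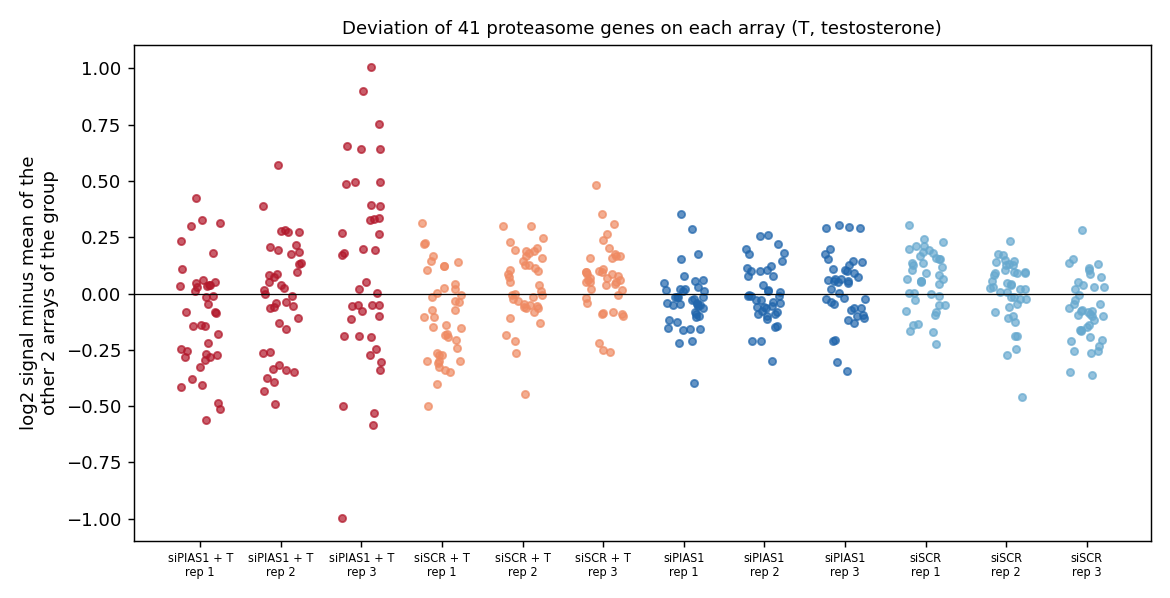
Deviation of each of the 41 proteasome genes on each of the 12 arrays from the mean of its group without that array (y axis, log2 units; 1 point per gene). On replicate 3 of siPIAS1 with testosterone the points spread from -0.998 to 1.01, wider than on the other arrays.

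Promoter stretches are shown for members that were called with testosterone after siPIAS1 and hold the first motif below upstream of the start, and for members that share the letters of the second. RefSeq lists 250 bases before to 50 bases after a gene's start on GRCh38.p14, and the entry listed first for a gene was used. It was present for 36 of the 41 members, all but PSMB1, PSMB6, PSMB7, PSMD4 and PSMG3. The core of the element that NFE2L1 binds, TGACNNNGC on either strand, was found in 13 of the 36 (36.1%) and in 13.6% of 27303 promoters. Those 13 held 2 of 7 base genes, 2 of 6 lid genes, 1 of 4 beta ring genes, 0 of 6 alpha ring genes, 3 of 4 activators, 2 of 3 assembly factors of the cap, 2 of 3 of the core and 1 of 3 immunoproteasome genes. A match is a description of letters, not a binding site. The stretches below are from PSMB3 (chr17:38752612-38752670, plus strand), PSMD3 (chr17:39980745-39980803, plus strand), PSMD12 (chr17:67366709-67366767, minus strand) and PSME4 (chr2:53970994-53971052, minus strand), which rose with testosterone after siPIAS1. They are followed by PSMG1 (chr21:39183601-39183659, minus strand), PSMG2 (chr18:12658674-12658732, plus strand) and PSME1 (chr14:24136083-24136141, plus strand), which fell. All are written 5′ to 3′ on the gene's strand. The match was thus held by called genes of both directions. Capitals mark the match, which in PSME4 is on the opposite strand.
PSMB3: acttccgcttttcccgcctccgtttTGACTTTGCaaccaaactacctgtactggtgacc
PSMD3: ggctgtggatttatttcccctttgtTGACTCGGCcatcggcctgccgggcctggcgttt
PSMD12: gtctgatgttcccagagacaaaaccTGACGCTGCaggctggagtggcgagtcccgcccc
PSME4: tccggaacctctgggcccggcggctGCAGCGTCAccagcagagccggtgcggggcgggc
PSMG1: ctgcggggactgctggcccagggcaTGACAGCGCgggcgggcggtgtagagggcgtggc
PSMG2: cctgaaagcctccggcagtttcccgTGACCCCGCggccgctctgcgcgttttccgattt
PSME1: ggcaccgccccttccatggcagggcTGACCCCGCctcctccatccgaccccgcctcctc

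A second motif, GAAA followed after any 2 bases by GAAA, on either strand, resembles an interferon-stimulated response element and was searched after the values were seen. It occurred in 6 of the 36 member promoters (16.7%) and in 3.65% of all promoters. PSMB10 (chr16:67936851-67936896, minus strand), PSME2 (chr14:24146611-24146663, minus strand) and PSMG4 (chr6:3258889-3258946, plus strand) held the identical 10 letters upstream of the start, in capitals below. The start listed for PSMG4 lies inside the gene's span. PSMA4, PSMB4 and PSME1 held the other matches, that of PSME1 beyond its start. The window of PSMB8 held neither motif, which says only that these letters are not there.
PSMB10: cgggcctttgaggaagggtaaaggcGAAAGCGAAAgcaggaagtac
PSME2: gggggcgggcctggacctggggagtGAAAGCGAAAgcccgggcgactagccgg
PSMG4: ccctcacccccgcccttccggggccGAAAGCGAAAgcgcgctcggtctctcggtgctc

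With testosterone the share of members called differed between the parts of the complex, which were not tested against each other. In siPIAS1 cells 20 of the 41 members changed, 13 higher and 7 lower (adjusted p under 0.05, limma, Benjamini-Hochberg over all genes). The share called was 48.8%, against 55.1% of all 10710 genes, with 31.7% higher against 25.4% and 17.1% lower against 29.7%. In siSCR cells 11 of the 41 changed, 7 higher and 4 lower, a share of 26.8% against 44.3% of all genes. Here 17.1% were higher, against 20%, and 9.76% were lower, against 24.3%. The groups did not overlap for 18 higher and 8 lower members in siPIAS1 cells, against 27.6% and 31.9% of all genes, and for 14 higher and 7 lower members in siSCR cells, against 27.4% and 31.8%. The changes were small: 8 of 41 members in siPIAS1 cells (30.3% of all genes) and 2 of 41 in siSCR cells (24.5% of all genes) were called and moved at least 1.5-fold. The family's median log2 difference was 0.22 in siPIAS1 cells, against -0.03 over all genes, and 0.10 in siSCR cells, against -0.02. In these bulk samples fewer cells of a type and less RNA per cell cannot be told apart. The 2 comparisons share no array. Between them 4 members rose in both, 4 fell in both, 18 were called in neither and 0 went opposite ways. No such count was made over all genes, so these counts do not measure agreement particular to the family. Without the array that stood apart, 22 members were called in siPIAS1 cells, 15 higher and 7 lower, and 6 of them moved at least 1.5-fold. Since the spread is estimated over all arrays, the siSCR count then became 17, with 11 higher and 6 lower. All genes then gave 2807 higher and 3142 lower in siPIAS1 cells, and 2634 and 3133 in siSCR cells. Scaling to each array's 75th percentile was run instead of quantile normalization. The split was then 23 higher and 3 lower in siPIAS1 cells, and 13 higher and 3 lower in siSCR cells. That scaling moved all genes too, to 3026 higher and 2632 lower in siPIAS1 cells, and 2383 and 2309 in siSCR cells.

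**Figure D2:**
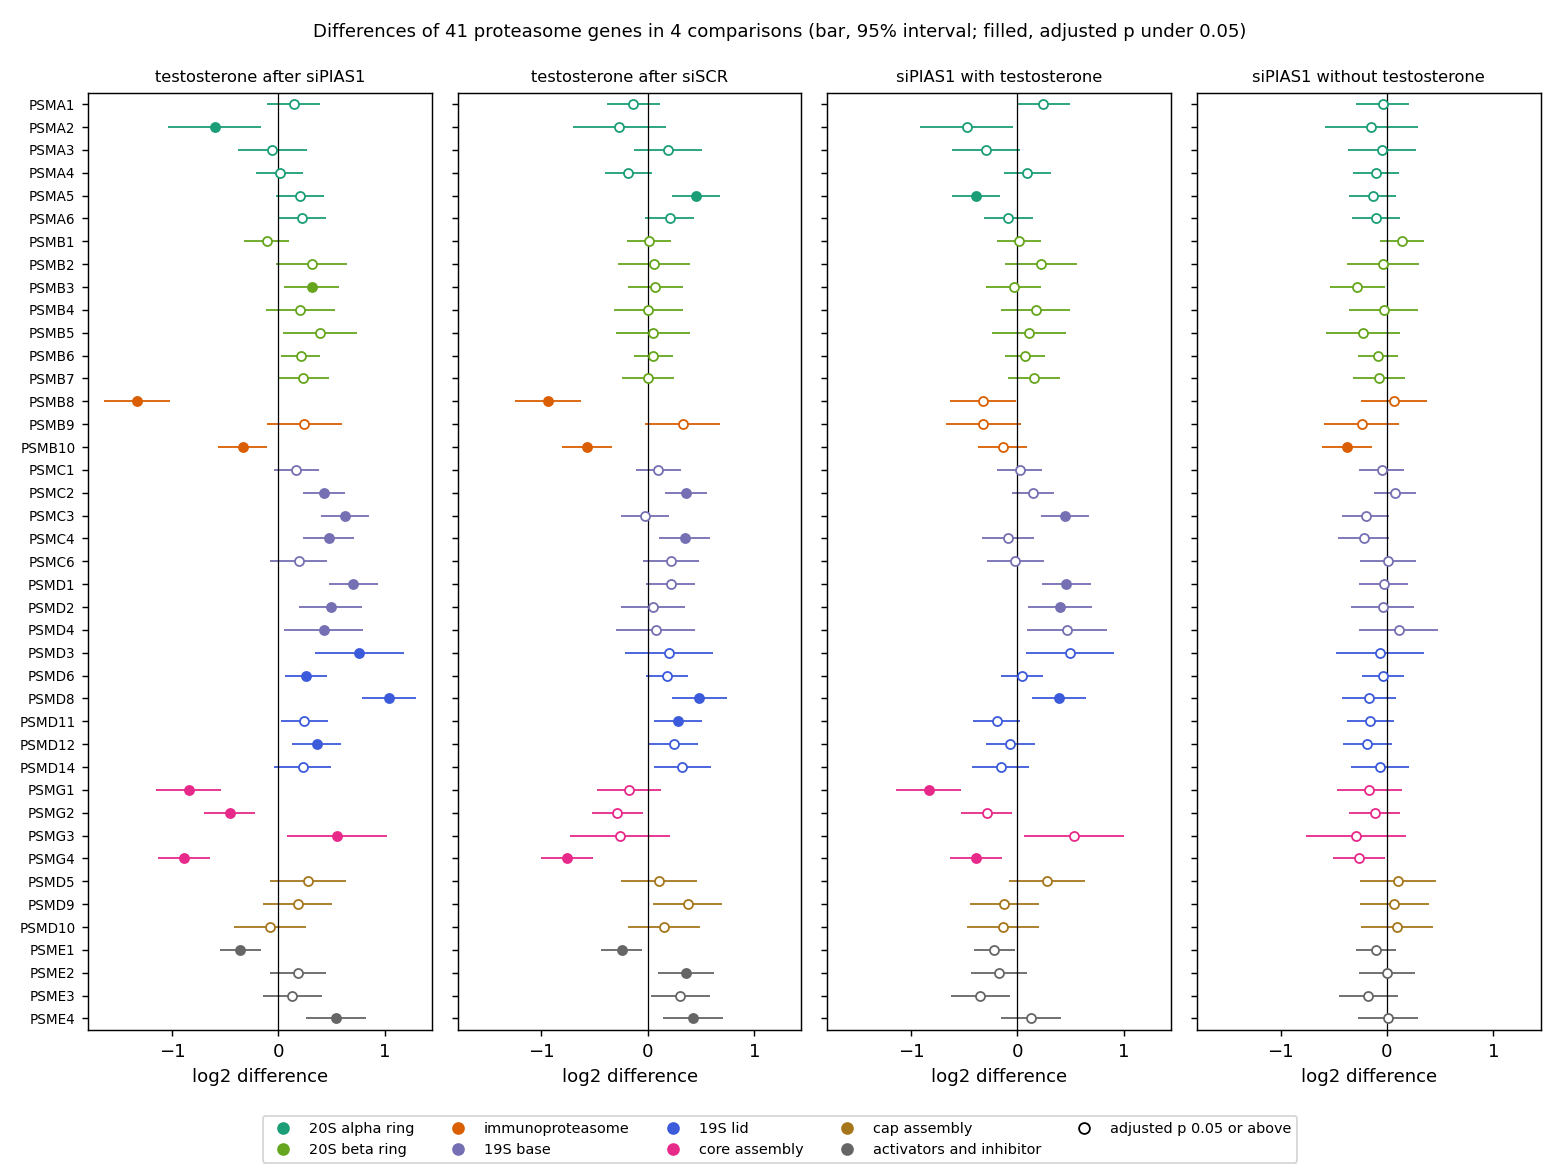
Log2 differences (x axis) of the 41 proteasome genes (rows, grouped and coloured by class) in 4 comparisons, with 95% intervals. Filled points passed an adjusted p of 0.05: 20 members for testosterone after siPIAS1, 11 for testosterone after siSCR, 7 for siPIAS1 with testosterone and 1 for siPIAS1 without it.

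The alpha ring, whose N-terminal tails close the pore of the core, had few calls from its brightest probes in the fit used. Of 6 measured members 1 fell in siPIAS1 cells, against 29.7% of all genes. In siSCR cells 1 rose, against 20% of all genes. PSMA5 (chr1:109399042-109426448, GRCh38.p14) was the one that rose. With testosterone it read 12.06, 11.99 and 12.03 in siPIAS1 cells and 12.23, 12.55 and 12.45 in siSCR cells (normalized log2 signal). Without testosterone it read 11.76, 11.80 and 11.91 in siPIAS1 cells and 12.01, 12.04 and 11.82 in siSCR cells. The siSCR arrays with testosterone lay above all others. The difference in siPIAS1 cells was 0.20 ± 0.10 (log2 difference ± SE, limma adjusted p = 0.113), and the rise in siSCR cells was 0.45 ± 0.10 (1.37-fold, adjusted p = 0.00269). PSMA2 was the one that fell. With testosterone it read 9.22, 9.32 and 8.27 in siPIAS1 cells and 9.31, 9.498 and 9.43 in siSCR cells. Without testosterone it read 9.64, 9.39 and 9.57 in siPIAS1 cells and 9.68, 9.73 and 9.63 in siSCR cells. Most of its fall rested on the array that stood apart: the difference in siPIAS1 cells was -0.60 ± 0.20 (adjusted p = 0.0228) with it and -0.27 (adjusted p = 0.0341) without it. It was no longer called without siPIAS1 replicate 1 or 3 (adjusted p = 0.0717 and 0.0612). Without that array PSMA2 also passed in siSCR cells (-0.27, adjusted p = 0.0195). PSMA1, PSMA3, PSMA4 and PSMA6 passed in neither testosterone comparison of the fit used, with differences between -0.18 and 0.22. PSMA6 passed in siSCR cells without replicate 1 of siSCR with testosterone (0.30, adjusted p = 0.0296). It also passed there with the authors' values (0.047), the mean of probes (0.0335) and array weights (0.00752). In siPIAS1 cells PSMA6 passed with the authors' values (adjusted p = 0.0429) and array weights (0.0409). Its other detected probe gave 0.44 in siSCR cells and 0.21 in siPIAS1 cells. For PSMA3 and PSMA4 the probes disagreed in siPIAS1 cells, since the brightest gave -0.06 and 0.01 and another detected probe gave 0.41 and -0.34. With limma adjustment over all detected probes these other probes passed (adjusted p = 0.018 and 0.0387), as did that of PSMA6 in siSCR cells (0.0316).

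The constitutive beta ring holds the protease sites, and its 7 members were all measured. In siPIAS1 cells 1 of them rose, against 25.4% of all genes. In siSCR cells 0 were called by limma, against 44.3% of all genes. There 0 had an unadjusted p under 0.05, with differences between 0.00 and 0.07. PSMB5, the chymotrypsin-like subunit and main target of the drug bortezomib, read 11.46, 11.40 and 12.09 in siPIAS1 cells with testosterone and 11.42, 11.46 and 11.75 in siSCR cells with testosterone. Without testosterone it read 11.19, 11.27 and 11.32 in siPIAS1 cells and 11.58, 11.58 and 11.32 in siSCR cells. The groups with and without testosterone did not overlap in siPIAS1 cells and overlapped in siSCR cells. The PSMB5 difference was 0.39 in siPIAS1 cells (95% interval 0.04 to 0.73), which did not pass (adjusted p = 0.0559), and 0.05 in siSCR cells (-0.30 to 0.40). PSMB6, the caspase-like subunit, read 11.93, 11.82 and 11.82 in siPIAS1 cells with testosterone and 11.74, 11.77 and 11.85 in siSCR cells with testosterone. Without testosterone PSMB6 read 11.66, 11.70 and 11.59 in siPIAS1 cells and 11.77, 11.75 and 11.68 in siSCR cells. Its arrays lay close together in every group, and its differences of 0.21 in siPIAS1 cells and 0.05 in siSCR cells did not pass (adjusted p = 0.0572 and 0.667). PSMB7, the trypsin-like subunit, read 12.58, 12.66 and 12.95 in siPIAS1 cells with testosterone and 12.45, 12.68 and 12.60 in siSCR cells with testosterone. Without testosterone PSMB7 read 12.52, 12.48 and 12.50 in siPIAS1 cells and 12.61, 12.67 and 12.44 in siSCR cells. Its groups overlapped in siSCR cells, and its differences of 0.23 in siPIAS1 cells and 0.00 in siSCR cells did not pass (adjusted p = 0.0925 and 0.994). These near misses in siPIAS1 cells depended on the processing and on single arrays of siPIAS1 with testosterone. With all arrays PSMB5 and PSMB6 passed under 75th percentile scaling (adjusted p = 0.00535 and 0.0134) and without background correction (0.0382 and 0.0305). They also passed with an offset of 50 (0.0429 and 0.0466) and the authors' values (0.0465 and 0.00854). PSMB7 passed under that scaling (adjusted p = 0.0114) and with the authors' values (0.0215). PSMB5 passed without replicate 1 (0.48, adjusted p = 0.035) or 2 (0.51, adjusted p = 0.0205), PSMB7 without replicate 1 (0.31, adjusted p = 0.0476) and PSMB6 without replicate 3 (0.22, adjusted p = 0.0392). Without replicate 3, PSMB5 was at 0.17 (adjusted p = 0.236) and PSMB7 at 0.13 (adjusted p = 0.296). The subunit that rose was PSMB3, which has no protease site. Its difference in siPIAS1 cells was 0.31 ± 0.12 (adjusted p = 0.041), and the call was lost without replicate 3 of siPIAS1 with testosterone (0.18, adjusted p = 0.142) or without siPIAS1 replicate 1 or 3 (adjusted p = 0.13 and 0.108). Over the 13 constitutive core subunits of both rings, 1 rose and 1 fell in siPIAS1 cells, against 25.4% and 29.7% of all genes. In siSCR cells 1 rose, against 20% of all genes. With scaling to the 75th percentile 7 of the 13 rose in siPIAS1 cells, against 3026 of all 10710 genes.

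Among the inducible catalytic subunits PSMB8 and PSMB10 went down and PSMB9 did not. Of 3 measured, 2 fell with testosterone in siPIAS1 cells and the same 2 fell in siSCR cells. Of all genes 29.7% and 24.3% were lower. PSMB8 (chr6:32840717-32844679), the inducible partner of PSMB5, read 6.42, 6.32 and 6.87 in siPIAS1 cells with testosterone and 6.66, 6.83 and 7.10 in siSCR cells with testosterone. Without testosterone PSMB8 read 7.98, 7.83 and 7.79 in siPIAS1 cells and 7.76, 7.89 and 7.74 in siSCR cells. Every array with testosterone lay below every array without it. In siPIAS1 cells with testosterone PSMB8 was detected on 2 of 3 arrays, so only a bound holds, and it was at least 2.45-fold lower there (limma adjusted p = 3.48e-06). In siSCR cells PSMB8 fell by 0.94 ± 0.14 on the log2 scale, or 1.91-fold (adjusted p = 1.11e-04). These sizes, and the bound, hold for the background-corrected signal only. Without background correction the PSMB8 difference was -0.85 in siPIAS1 cells and -0.62 in siSCR cells. With the authors' values it was -0.52 and -0.38, and the calls were kept under both alternatives. Of the 2 other probes of PSMB8 that passed the filter, 1 was at least 2.10-fold lower in siPIAS1 cells, detected there on 1 of 3 arrays with testosterone, and at least 1.79-fold lower in siSCR cells, detected on 2. The other one was detected on 0 arrays with testosterone, and it was at least 1.95-fold lower in siPIAS1 cells and at least 1.48-fold lower in siSCR cells. It passed the detection filter only through the arrays without testosterone, so its fall is no separate support. A further PSMB8 probe was detected on 0 arrays. PSMB10 (chr16:67934506-67936850), the inducible partner of PSMB7, read 10.28, 10.09 and 9.99 in siPIAS1 cells with testosterone and 10.36, 10.22 and 10.20 in siSCR cells with testosterone. Without testosterone PSMB10 read 10.43, 10.63 and 10.32 in siPIAS1 cells and 10.81, 10.79 and 10.89 in siSCR cells. Its siSCR arrays without testosterone lay above all other arrays. It fell by 0.34 ± 0.11 in siPIAS1 cells (1.26-fold, adjusted p = 0.0175) and by 0.57 ± 0.11 in siSCR cells (1.49-fold, adjusted p = 6.03e-04). The PSMB10 call in siPIAS1 cells was lost without siPIAS1 replicate 2 (-0.25, adjusted p = 0.0884) and, at -0.19, under 75th percentile scaling (adjusted p = 0.194). PSMB9 (chr6:32854192-32859851), the inducible partner of PSMB6, lay near the detection limit. With testosterone it read 5.87, 6.25 and 6.08 in siPIAS1 cells, detected on 0 arrays, and 6.37, 6.09 and 6.71 in siSCR cells, detected on 2. Without testosterone PSMB9 read 5.56, 5.89 and 6.02 in siPIAS1 cells, detected on 0 arrays, and 6.14, 5.90 and 6.15 in siSCR cells, detected on 1. Its groups overlapped, and no comparison passed in the fit used. With testosterone its difference was 0.24 in siPIAS1 cells and 0.33 in siSCR cells. The siSCR value passed without replicate 2 of siSCR with testosterone (0.47, adjusted p = 0.0376). It also passed with array weights (0.45, adjusted p = 0.0218) and with undetected signals raised (0.31, adjusted p = 0.045).

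**Figure D3:**
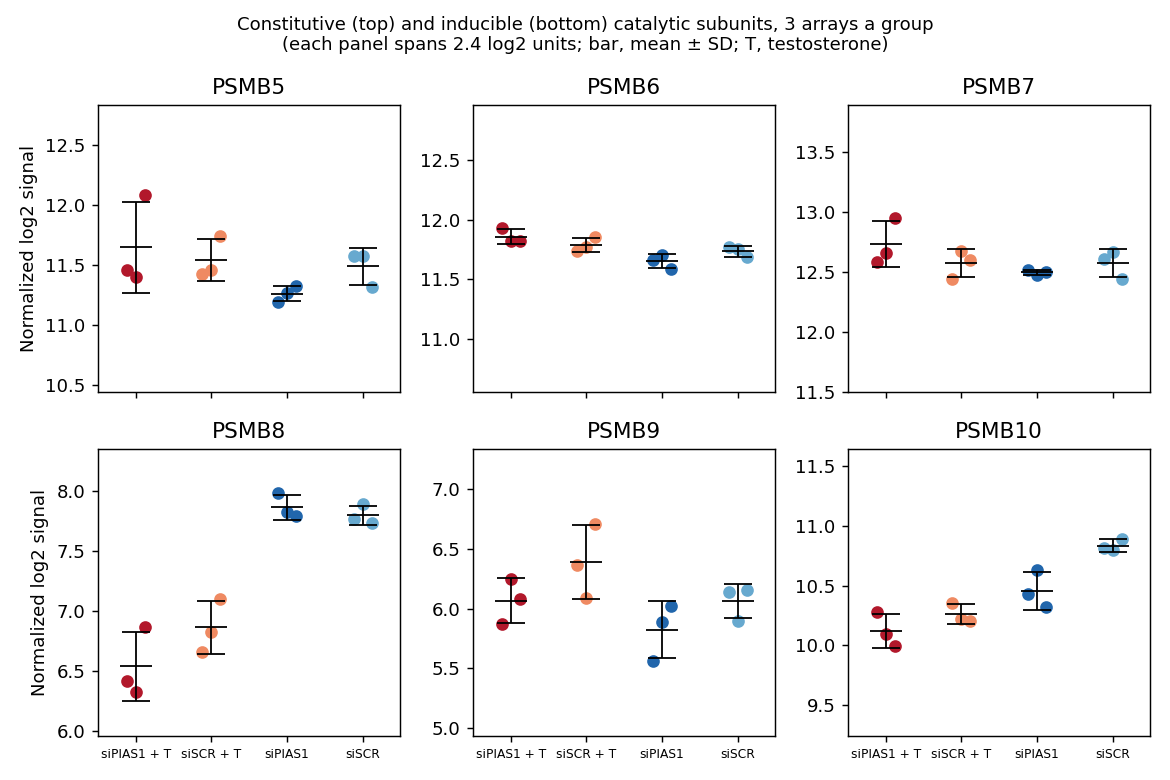
Normalized log2 signal (y axis) of the constitutive catalytic subunits PSMB5, PSMB6 and PSMB7 (top) and their inducible partners PSMB8, PSMB9 and PSMB10 (bottom) in the 4 groups, 1 point per array with mean ± SD, each panel spanning 2.4 log2 units. PSMB8 lies between 6.32 and 7.10 with testosterone and between 7.74 and 7.98 without it. PSMB5, PSMB6 and PSMB7 did not pass in any comparison of the fit used.

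Cap subunits rose with testosterone in siPIAS1 cells, and fewer of them were called in siSCR cells. Of 14 measured subunits 10 rose in siPIAS1 cells (71.4% against 25.4% of all genes) and 4 rose in siSCR cells (28.6% against 20%). Lower by limma at the adjusted threshold were 0 in each, against 29.7% and 24.3% of all genes. Differences were positive for 14 of 14 in siPIAS1 cells and 13 of 14 in siSCR cells. Over all 10710 genes they were positive for 5096 and 5139. The median log2 difference was 0.43 in siPIAS1 cells, against -0.03 over all genes, and 0.22 in siSCR cells, against -0.02. Without the array that stood apart 12 of 14 rose in siPIAS1 cells, with a median of 0.33, and 6 rose in siSCR cells. Of all 10710 genes 2807 and 2634 were then higher. With scaling to the 75th percentile 13 rose in siPIAS1 cells and 9 in siSCR cells, against 3026 and 2383 of all genes.

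The base of the cap is the ring of ATPases that unfolds the substrate, with its scaffold. In it 6 of 8 subunits rose in siPIAS1 cells and 2 of 8 in siSCR cells. Of all genes 25.4% and 20% were higher. PSMC2, an ATPase, read 12.44, 12.48 and 12.34 in siPIAS1 cells with testosterone and 12.13, 12.36 and 12.33 in siSCR cells with testosterone. Without testosterone PSMC2 read 12.01, 11.95 and 12.03 in siPIAS1 cells and 11.91, 11.94 and 11.89 in siSCR cells. All arrays with testosterone lay above all arrays without it, by 0.42 ± 0.09 in siPIAS1 cells (adjusted p = 0.00142) and by 0.36 ± 0.09 in siSCR cells (adjusted p = 0.00558). PSMC3 (chr11:47418775-47426439), another ATPase, read 10.08, 9.98 and 10.20 in siPIAS1 cells with testosterone and 9.79, 9.52 and 9.61 in siSCR cells with testosterone. Without testosterone PSMC3 read 9.45, 9.52 and 9.42 in siPIAS1 cells and 9.79, 9.65 and 9.55 in siSCR cells. Only the siPIAS1 arrays with testosterone stood above the rest. The PSMC3 difference was 0.62 ± 0.10 in siPIAS1 cells (1.54-fold, adjusted p = 1.96e-04) and -0.02 ± 0.10 in siSCR cells (adjusted p = 0.874). PSMD1, a scaffold that holds the ubiquitin receptor ADRM1, read 11.35, 11.29 and 11.05 in siPIAS1 cells with testosterone and 10.87, 10.73 and 10.72 in siSCR cells with testosterone. Without testosterone PSMD1 read 10.38, 10.60 and 10.60 in siPIAS1 cells and 10.50, 10.54 and 10.63 in siSCR cells. The siPIAS1 arrays with testosterone were again the highest, with a rise of 0.70 ± 0.11 (1.63-fold, adjusted p = 8.22e-05), against 0.21 ± 0.11 in siSCR cells (adjusted p = 0.121). PSMD2, the scaffold on which ubiquitin shuttle factors dock, read 11.33, 11.20 and 11.75 in siPIAS1 cells with testosterone and 11.14, 10.85 and 11.09 in siSCR cells with testosterone. Without testosterone PSMD2 read 10.95, 10.92 and 10.95 in siPIAS1 cells and 10.92, 10.85 and 11.17 in siSCR cells. The siPIAS1 groups did not overlap, and the rise was 0.49 ± 0.14 (adjusted p = 0.00868).

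The other base subunits gave smaller or less secure values. PSMC4, an ATPase, rose by 0.47 ± 0.11 in siPIAS1 cells (adjusted p = 0.00275) and by 0.34 ± 0.11 in siSCR cells (adjusted p = 0.0223). The siSCR call of PSMC4 was lost without siSCR replicate 3 and without replicate 2 or 3 of siSCR with testosterone (adjusted p = 0.0777 to 0.0947) and with the mean of its probes (0.23, adjusted p = 0.0686). The probes of PSMC4 disagreed: 2 others, each detected on 12 arrays, gave 0.14 and 0.93 in siPIAS1 cells and 0.02 and 0.33 in siSCR cells. The ubiquitin receptor PSMD4 was at the threshold in siPIAS1 cells (0.43 ± 0.17, adjusted p = 0.05 after rounding), its groups overlapped, and the call was lost without replicate 3 of siPIAS1 with testosterone (0.18, adjusted p = 0.205) and without siPIAS1 replicate 1 or 3 (adjusted p = 0.142 and 0.126). These values are from its brightest probe. Other PSMD4 probes, each detected on 12 arrays, gave 0.52 and 0.43 in siPIAS1 cells. With limma adjustment over all detected probes the probe at 0.52 passed there, while the probe at 0.43 and the brightest did not. PSMC1 and PSMC6, both ATPases, passed in neither comparison, with differences of 0.10 to 0.22, though PSMC1 passed in siPIAS1 cells without replicate 3 of siPIAS1 with testosterone (0.25, adjusted p = 0.027).

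In the lid, which removes the ubiquitin chain, 4 of 6 subunits rose in siPIAS1 cells and 2 of 6 in siSCR cells. Of all genes 25.4% and 20% were higher. PSMD8 (chr19:38374571-38383824), a structural subunit, read 11.12, 10.96 and 11.31 in siPIAS1 cells with testosterone and 10.83, 10.81 and 10.60 in siSCR cells with testosterone. Without testosterone PSMD8 read 10.03, 10.19 and 10.06 in siPIAS1 cells and 10.35, 10.08 and 10.35 in siSCR cells. The siPIAS1 arrays with testosterone were the highest and the siSCR arrays with testosterone came next, with no overlap with those without it. PSMD8 rose by 1.04 ± 0.12 in siPIAS1 cells (2.06-fold, adjusted p = 5.45e-06) and by 0.48 ± 0.12 in siSCR cells (1.40-fold, adjusted p = 0.00416). PSMD3, a scaffold subunit, read 9.24, 9.39 and 10.21 in siPIAS1 cells with testosterone and 9.26, 9.14 and 8.94 in siSCR cells with testosterone. Without testosterone PSMD3 read 8.88, 8.84 and 8.83 in siPIAS1 cells and 8.80, 9.07 and 8.88 in siSCR cells. The array that stood apart held its highest value. The rise in siPIAS1 cells was 0.76 ± 0.19 (adjusted p = 0.00438) with that array and 0.46 (adjusted p = 0.00335) without it. PSMD12 rose in siPIAS1 cells by 0.36 ± 0.11 (adjusted p = 0.0122). PSMD6 rose there by 0.26 ± 0.09 (adjusted p = 0.0282), a call lost without siPIAS1 replicate 2 or 3 or replicate 2 of siPIAS1 with testosterone (adjusted p = 0.0678 to 0.112). PSMD11 rose in siSCR cells by 0.28 ± 0.10 (adjusted p = 0.0388), a call lost without siSCR replicate 1, 2 or 3 or replicate 2 or 3 of siSCR with testosterone (adjusted p = 0.0727 to 0.146). PSMD14, the deubiquitinase of the lid, gave 0.23 in siPIAS1 cells (adjusted p = 0.141) and 0.32 in siSCR cells (adjusted p = 0.0509). Without replicate 3 of siPIAS1 with testosterone it passed in both (0.33 in siPIAS1 and 0.32 in siSCR cells, adjusted p = 0.0324 and 0.0213), and in siSCR cells also without replicate 2 of that group or replicate 1 of siSCR with testosterone (adjusted p = 0.0264 and 0.0239).

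The assembly factors of the core, which help the alpha ring to form, moved down in siPIAS1 cells with 1 exception. Of 4 measured, 3 fell and 1 rose in siPIAS1 cells, against 29.7% and 25.4% of all genes. In siSCR cells 1 fell, against 24.3% of all genes. PSMG4 (chr6:3254404-3268049) read 8.32, 8.46 and 8.05 in siPIAS1 cells with testosterone and 8.66, 8.62 and 8.71 in siSCR cells with testosterone. Without testosterone PSMG4 read 9.15, 9.24 and 9.09 in siPIAS1 cells and 9.55, 9.30 and 9.42 in siSCR cells. The 4 groups did not overlap. PSMG4 fell by 0.88 ± 0.11 in siPIAS1 cells (1.84-fold, adjusted p = 1.74e-05) and by 0.76 ± 0.11 in siSCR cells (1.69-fold, adjusted p = 8.42e-05). PSMG1 read 9.67, 9.66 and 9.08 in siPIAS1 cells with testosterone and 10.29, 10.30 and 10.31 in siSCR cells with testosterone. Without testosterone PSMG1 read 10.21, 10.38 and 10.35 in siPIAS1 cells and 10.64, 10.39 and 10.40 in siSCR cells. Only the siPIAS1 arrays with testosterone stood below the rest. PSMG1 fell by 0.84 ± 0.14 in siPIAS1 cells (1.79-fold, adjusted p = 1.98e-04), and its difference in siSCR cells was -0.18 ± 0.14 (adjusted p = 0.337). Both detected probes of PSMG1 gave -0.84 in siPIAS1 cells. PSMG2, the partner of PSMG1 in a dimer, read 11.12, 11.27 and 11.15 in siPIAS1 cells with testosterone and 11.23, 11.67 and 11.50 in siSCR cells with testosterone. Without testosterone PSMG2 read 11.59, 11.63 and 11.69 in siPIAS1 cells and 11.80, 11.82 and 11.65 in siSCR cells. The siPIAS1 groups did not overlap while the siSCR groups did, and PSMG2 fell by 0.46 ± 0.11 in siPIAS1 cells (adjusted p = 0.00336), against -0.29 ± 0.11 in siSCR cells (adjusted p = 0.0512). The siSCR value passed without replicate 2 of siSCR with testosterone (-0.39, adjusted p = 0.0172) or replicate 3 of siPIAS1 with testosterone (adjusted p = 0.0341). Under 75th percentile scaling PSMG2 in siPIAS1 cells did not pass (-0.30, adjusted p = 0.057). PSMG3, the partner of PSMG4, was the exception, at 0.55 ± 0.22 in siPIAS1 cells (adjusted p = 0.0454). That call was lost without replicate 3 of siPIAS1 with testosterone (0.22, adjusted p = 0.182) and without siPIAS1 replicate 2 or 3 (adjusted p = 0.0883 and 0.153). Of the assembly factors of the cap, PSMD5, PSMD9 and PSMD10, 0 were called by limma in either testosterone comparison, with 0 in siPIAS1 cells and 1 in siSCR cells at an unadjusted p under 0.05. PSMD9 passed in siSCR cells (0.37) without replicate 1 or 3 of siPIAS1 with testosterone (adjusted p = 0.0281 and 0.0151). For PSMD10 the brightest probe gave -0.08 in siPIAS1 cells, against 0.75 and 0.28 from 2 other detected probes.

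The activators, which open the core from its ends in place of the 19S cap, went separate ways. PSME1 and PSME2 form the interferon-inducible PA28 ring together and are neighbours on chromosome 14 (PSME1 at chr14:24136194-24138962, PSME2 at chr14:24143365-24146610). PSME1 read 11.61, 11.63 and 11.67 in siPIAS1 cells with testosterone and 11.86, 11.82 and 11.88 in siSCR cells with testosterone. Without testosterone PSME1 read 11.97, 12.11 and 11.91 in siPIAS1 cells and 12.10, 12.16 and 12.04 in siSCR cells. Arrays with testosterone were lower than those without it throughout, by 0.36 ± 0.09 in siPIAS1 cells (-0.36, adjusted p = 0.00369) and 0.25 ± 0.09 in siSCR cells (-0.25, adjusted p = 0.0369). PSME2 read 11.10, 11.30 and 11.47 in siPIAS1 cells with testosterone and 11.26, 11.51 and 11.62 in siSCR cells with testosterone. Without testosterone PSME2 read 11.003, 11.22 and 11.09 in siPIAS1 cells and 11.21, 11.09 and 11.01 in siSCR cells. Its siPIAS1 groups overlapped (0.19, adjusted p = 0.214, or 0.10 without replicate 3 of siPIAS1 with testosterone), and it rose in siSCR cells by 0.36 ± 0.12 (adjusted p = 0.0276). The siSCR call of PSME1 was lost without any of siSCR replicates 1 and 2 and the 3 arrays of siSCR with testosterone (adjusted p = 0.0613 to 0.127), and that of PSME2 without siSCR replicate 2 or 3 or replicate 2 or 3 of siSCR with testosterone (adjusted p = 0.0707 to 0.124). With the replicate number as a block, PSME1 in siSCR cells had an adjusted p of 0.0549 and PSMD11 one of 0.0539. With scaling to the 75th percentile PSME1 passed neither in siPIAS1 cells (-0.22, adjusted p = 0.0809) nor in siSCR cells (-0.11, adjusted p = 0.406). PSME4, the nuclear activator PA200, read 11.52, 11.44 and 10.94 in siPIAS1 cells with testosterone and 11.19, 11.17 and 11.16 in siSCR cells with testosterone. Without testosterone PSME4 read 10.72, 10.69 and 10.86 in siPIAS1 cells and 10.78, 10.81 and 10.65 in siSCR cells. All arrays with testosterone were higher, by 0.54 ± 0.13 in siPIAS1 cells (adjusted p = 0.00297) and by 0.42 ± 0.13 in siSCR cells (adjusted p = 0.0171, or 0.0672 without siSCR replicate 3). PSME3, the nuclear PA28 subunit, read 10.83, 10.75 and 10.29 in siPIAS1 cells with testosterone and 10.997, 11.003 and 10.91 in siSCR cells with testosterone. Without testosterone PSME3 read 10.41, 10.44 and 10.62 in siPIAS1 cells and 10.57, 10.73 and 10.69 in siSCR cells. The siSCR groups did not overlap, but PSME3 passed neither in siPIAS1 cells (0.13, adjusted p = 0.407) nor in siSCR cells (0.30, adjusted p = 0.0716). Without replicate 3 of siPIAS1 with testosterone it passed in both, at 0.30 each (adjusted p = 0.0162 and 0.0079). PSME3IP1, which binds PSME3 and is in no count here, gave 0.28 ± 0.11 in siPIAS1 cells (limma adjusted p = 0.038), with overlapping groups, or 0.19 (adjusted p = 0.111) without that array.

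Knockdown of PIAS1 without testosterone left nearly all members without a call. Only 1 of 41 changed, a share of 2.44% against 13.3% of all genes, and 3 had an unadjusted p under 0.05. By direction 0 were higher, against 7.56% of all genes, and 1 was lower, against 5.77%. None moved at least 1.5-fold, against 4.92%. The groups did not overlap for 1 higher and 8 lower members, against 21.6% and 20.9% of all genes. The member was PSMB10, lower by 0.38 ± 0.11 (-0.38, 1.30-fold, adjusted p = 0.0345), and the siPIAS1 arrays did not overlap the siSCR arrays. The PSMB10 call was lost without any of the 3 siSCR arrays or siPIAS1 replicate 1 or 3, with adjusted p of 0.0799 to 0.141. Without replicate 3 of siPIAS1 with testosterone, which is in neither group but enters the estimate of spread, PSMB3 (-0.28) and PSMG4 (-0.26) passed as well (adjusted p = 0.04 and 0.0469). The 41 differences ran from -0.38 to 0.14 with a median of -0.08, against -0.00 over all genes, and 31 of the 41 were negative, against 5444 of the 10710 genes.

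With testosterone present, knockdown changed 7 of 41 members, 4 higher and 3 lower, a share of 17.1% against 33.5% of all genes. Of all genes 16.3% were higher and 17.2% lower, and 13.6% moved at least 1.5-fold, against 1 of the members. The groups did not overlap for 5 higher and 5 lower members, against 20.4% and 21.3% of all genes. All 4 that were higher belong to the cap. PSMC3 was higher by 0.45 ± 0.10 (1.36-fold, adjusted p = 0.00557), PSMD1 by 0.46 ± 0.11 (adjusted p = 0.00527), PSMD2 by 0.40 ± 0.14 (adjusted p = 0.0403) and PSMD8 by 0.39 ± 0.12 (adjusted p = 0.0231). For each of these genes the siPIAS1 arrays with testosterone lay above the siSCR arrays with testosterone. The PSMD2 and PSMD8 calls were lost without replicate 3 of siPIAS1 with testosterone (0.24 and 0.30, adjusted p = 0.122 and 0.0592) and without replicate 3 of siSCR with testosterone (adjusted p = 0.0723 and 0.105), PSMD2 also without replicate 2 (adjusted p = 0.159). The 3 lower ones were PSMG1 (-0.83 ± 0.14, 1.78-fold, adjusted p = 6.68e-04), PSMG4 (-0.39 ± 0.11, adjusted p = 0.019) and PSMA5 (-0.39 ± 0.10, adjusted p = 0.0126). PSMG4 was lost without replicate 3 of siSCR with testosterone (adjusted p = 0.0676), and PSMA5 without its replicate 2 (adjusted p = 0.0644). PSMB8, detected on 2 of 3 siPIAS1 arrays with testosterone, did not pass with all arrays (-0.32 ± 0.14, adjusted p = 0.0985) but was lower without replicate 3 of siPIAS1 with testosterone (-0.49, adjusted p = 0.00752). The scaffold PSMD3 (0.50) and PSMD4 (0.47) did not pass with all arrays (adjusted p = 0.0632 and 0.0528) but did without replicate 1 or 2 of siPIAS1 with testosterone (adjusted p = 0.0165 to 0.0399). Without replicate 3 of that group PSMD3 was at 0.20 and PSMD4 at 0.21 (adjusted p = 0.192 and 0.161). Other detected probes of PSMD4 gave 0.36 and 0.44 with all arrays. With limma adjustment over all detected probes the probe at 0.36 passed, while the probe at 0.44 and the brightest did not. The median over the cap was 0.09 and turned to -0.03 with scaling to the 75th percentile, where 2 of 14 were higher. Over the 41 members that scaling gave 2 higher and 6 lower. The authors' deposited log2 values gave 4 higher and 6 lower. This comparison shares its siPIAS1 arrays with that of testosterone in siPIAS1 cells, and its siSCR arrays with that of testosterone in siSCR cells.

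The difference between both testosterone responses, after siPIAS1 minus after siSCR, was called for 1 of 41 members (2.44% against 9.94% of all genes), 1 larger against 4.88% and 0 smaller against 5.06%. It was also the 1 member called at 1.5-fold or more, against 8.26% of all genes, and 6 had an unadjusted p under 0.05. That member was PSMC3, at 0.65 ± 0.15 (adjusted p = 0.0139), and its call was kept under every alternative run. PSMD8 (0.56 ± 0.17, adjusted p = 0.0509), PSMG1 (-0.66 ± 0.20, adjusted p = 0.0511) and PSMD1 (0.49 ± 0.15, adjusted p = 0.0563) lay just outside the threshold. With all arrays, each passed without background correction, with an offset of 50, with the authors' values and with array weights (adjusted p = 0.00189 to 0.0407). Under 75th percentile scaling only PSMD8 of them passed (adjusted p = 0.043). Without a detection filter or with a replicate block, none of them did. PSMG1 passed without replicate 1 or 2 of siPIAS1 with testosterone (adjusted p = 0.0329 and 0.0279), PSMD8 without its replicate 2, siSCR replicate 2 or replicate 1 of siSCR with testosterone (adjusted p = 0.0253 to 0.0463), and PSMD1 without the last of these (adjusted p = 0.0423). Without replicate 3 of siPIAS1 with testosterone 4 members passed: PSMC3, PSMD1 (0.58, adjusted p = 0.0109), PSMG1 (-0.47, adjusted p = 0.0309) and PSMB8 (-0.56, adjusted p = 0.0365). For the cap the median was 0.12, so the larger number of cap calls in siPIAS1 cells is a count in 2 separate tests and not a tested difference for each gene.

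**Figure D4:**
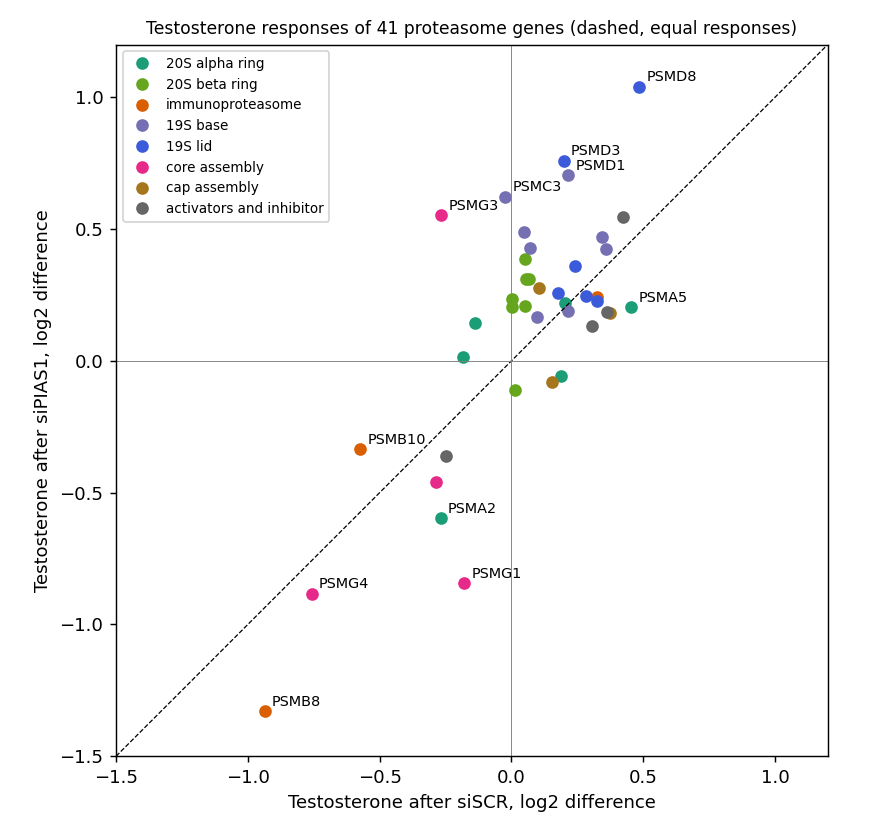
Log2 difference with testosterone after siPIAS1 (y axis) against that after siSCR (x axis) for the 41 proteasome genes, coloured by class, with a dashed line of equal responses. PSMD8 (1.04 after siPIAS1, 0.48 after siSCR), PSMD1 (0.70, 0.21) and PSMC3 (0.62, -0.02) lie above the line, PSMG1 (-0.84, -0.18) below it. PSMB8 is drawn at its measured means, though it was detected on 2 of 3 siPIAS1 arrays with testosterone.

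Genes that work with the proteasome were counted from a list of 29 partners and regulators, of which 24 were measured. Testosterone raised 10 and lowered 3 in siPIAS1 cells, and raised 8 and lowered 3 in siSCR cells, with median differences of 0.13 and 0.20. In siPIAS1 cells 41.7% were higher, against 25.4% of all genes, and 12.5% lower, against 29.7%. In siSCR cells 33.3% were higher, against 20%, and 12.5% lower, against 24.3%. NFE2L1, the transcription factor for subunit genes, rose by 0.57 ± 0.11 in siPIAS1 cells (1.49-fold, adjusted p = 6.06e-04) and by 0.50 ± 0.11 in siSCR cells (1.41-fold, adjusted p = 0.00206). NFE2L2, the factor of the oxidative stress response, rose by 0.68 ± 0.11 in siPIAS1 cells (adjusted p = 1.84e-04) and by 0.52 ± 0.11 in siSCR cells (adjusted p = 0.00171). ADRM1, a ubiquitin receptor of the cap, rose by 0.74 ± 0.12 in siPIAS1 cells (adjusted p = 1.06e-04) and by 0.38 ± 0.12 in siSCR cells (adjusted p = 0.0163, lost without siSCR replicate 1 or 2 or replicate 1 of siSCR with testosterone, 0.0583 to 0.0645). SEM1, the small lid subunit, rose by 0.36 in siPIAS1 cells (adjusted p = 0.00729) and gave 0.13 in siSCR cells (adjusted p = 0.321). POMP, the chaperone of the beta rings, passed neither in siPIAS1 cells (0.13, adjusted p = 0.299) nor in siSCR cells (0.22, adjusted p = 0.0891). ZFAND2A, a stress-induced protein that binds the proteasome, rose 1.74-fold in siPIAS1 cells and 1.38-fold in siSCR cells (adjusted p = 7.61e-06 and 0.00104). UFD1, a cofactor of the segregase VCP, rose 1.46-fold in siPIAS1 cells and 1.57-fold in siSCR cells (adjusted p = 0.00417 and 0.00152). PAAF1, a protein that binds the ATPases of the cap outside the finished complex, fell by 0.72 ± 0.12 in siPIAS1 cells (adjusted p = 1.96e-04), against -0.12 in siSCR cells (adjusted p = 0.452). Knockdown without testosterone gave 0 calls by limma in this list, against 13.3% of all genes, with 1 gene at an unadjusted p under 0.05. With testosterone 3 were higher and 3 lower in siPIAS1 cells, 12.5% each, against 16.3% and 17.2% of all genes. Those of smallest p were PAAF1 (-0.57, adjusted p = 0.00294), UCHL5, a deubiquitinase of the cap (-0.42, adjusted p = 0.00669), VCP (0.67, adjusted p = 0.00916, or 0.41 and 0.00817 without replicate 3 of siPIAS1 with testosterone) and the shuttle factor UBQLN4 (-0.42, adjusted p = 0.0101).

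A second list of 30 genes of antigen presentation and the interferon response, of which 19 were measured, was set beside PSMB8 and PSMB10. Testosterone raised 4 and lowered 5 in siPIAS1 cells, and raised 6 and lowered 2 in siSCR cells. In siPIAS1 cells 21.1% were higher, against 25.4% of all genes, and 26.3% lower, against 29.7%, both near the background. In siSCR cells 31.6% were higher, against 20%, and 10.5% lower, against 24.3%. TAP1 (chr6:32845209-32853704) and TAP2 (chr6:32821831-32838739), which carry proteasome products into the endoplasmic reticulum, are neighbours of PSMB8 and PSMB9. TAP1 averaged 7.93 ± 0.10 in siPIAS1 cells with testosterone and 8.18 ± 0.09 in siSCR cells with testosterone (SD, n = 3 each). Without testosterone TAP1 averaged 8.86 ± 0.02 in siPIAS1 cells and 8.67 ± 0.02 in siSCR cells. It fell by 0.93 ± 0.09 in siPIAS1 cells (limma adjusted p = 1.09e-06) and by 0.49 ± 0.09 in siSCR cells (adjusted p = 4.97e-04). TAP2 was at least 1.63-fold lower with testosterone in siPIAS1 cells (adjusted p = 0.0025), where it was detected on 2 of 3 arrays, and it did not pass in siSCR cells (-0.10, adjusted p = 0.699). MX1, an interferon-induced antiviral GTPase, was at least 1.77-fold lower in siPIAS1 cells and at least 1.36-fold lower in siSCR cells (adjusted p = 8.73e-07 and 1.05e-06), and it was not detected on any array with testosterone. It thus passed the detection filter only through the arrays without testosterone. B2M, the light chain of MHC class I, rose 2.60-fold in siPIAS1 cells and 2.29-fold in siSCR cells (adjusted p = 9.04e-06 and 4.06e-05). ISG15, an interferon-induced ubiquitin-like protein, rose 1.55-fold in siPIAS1 cells and 1.42-fold in siSCR cells (adjusted p = 5.63e-04 and 0.00322). HLA-B, an MHC class I heavy chain with close paralogs whose transcripts its probe may not separate, rose 1.36-fold in siPIAS1 cells and 2.48-fold in siSCR cells (adjusted p = 0.00604 and 6.53e-07). HLA-B was also the list's 1 call for knockdown without testosterone (5.26% higher against 7.56% of all genes), higher by 0.69 ± 0.12 (adjusted p = 0.00186). With testosterone knockdown raised 2 (10.5% against 16.3% of all genes) and lowered 2 (10.5% against 17.2%). B2M (0.46, adjusted p = 0.0471) and ISG15 (0.33, adjusted p = 0.0486) were higher. The ISG15 call was lost without any 1 of the arrays compared (adjusted p = 0.0555 to 0.151). That of B2M was lost without replicate 1 or 2 of either group (adjusted p = 0.0585 to 0.184). The lower ones were TAP2, at least 1.99-fold lower (adjusted p = 7.01e-04), and TAP1 (-0.26, adjusted p = 0.0424). The TAP1 call was lost without any of the 3 siSCR arrays with testosterone or replicate 2 or 3 of siPIAS1 with testosterone (adjusted p = 0.05 to 0.15).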

How the data were processed

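Gene expression was measured on Illumina bead arrays in 12 samples of VCaP cells, 3 in each of 4 groups. The authors deposited the scanner intensity of 47323 probes per array without normalization, per the file headers, and a detection p-value beside each intensity, per the file headers. A second table that the authors deposited holds log2 values they had normalized, and the submitters' processing notes name lumi. Each of its columns ranked the probes as that array's intensities did (lowest rank correlation 1). Its exact transform is unknown and the lumi version is not stated, and it served only as an alternative.

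Background correction and quantile normalization were done with neqc of limma 3.58.1 (R 4.3.3, offset 16). Gene names came from the platform annotation and were brought up to date with RefSeq of GRCh38.p14: 30113 probes had 1 gene, 8 had several and 17202 had none listed. Probes with a detection p under 0.01 on at least 3 arrays were kept (17835), and the brightest per gene gave 10710 genes. For 14 members more than 1 probe was detected. Levels are compared within a probe only.

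All 12 arrays entered 1 limma fit of 4 groups (8 residual and 5.77 prior degrees of freedom), and 5 comparisons were drawn from it. Adjusted p-values are two-sided limma values with Benjamini-Hochberg adjustment over all genes. An exact test of 3 arrays against 3 cannot go below 0.1 and was not used. The number of arrays limits the precision, with a median standard error of 0.121 for the members. Where a probe was not detected on all arrays of the dimmer group, a fold is a bound against the lowest detected signal. Gene lists are described by counts and medians, with no test. Values on every array are given for the 4 members of smallest p in each direction of each comparison, for those past the threshold and changed at least 1.5-fold, for the catalytic pairs and for the activators. Of the 2 lists of related genes, up to 4 genes of smallest p per comparison and 5 fixed names could be given. Marker lists of luminal, immune and fibroblast cells served as a check. The members and lists were chosen with earlier results of these data known. A further promoter motif was searched and is not reported here. The procedure was tested on simulated data. The alternatives were another scaling, no background correction, an offset of 50, the authors' values, other filters, the mean of probes, array weights, a replicate block, only the groups compared, and leaving out each array. Same-numbered arrays showed little shared deviation: 3 of 18 correlations of their deviations were over 0.1 (range -0.26 to 0.195). The fit therefore has no block, though with 3 arrays a group this cannot exclude pairing.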

Additional observations from a re-analysis of the deposited data

Results flagged for a closer look

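The testosterone response after siPIAS1 differed from that after siSCR by a test of the difference itself (limma interaction, adjusted over all genes) for 4 of the genes described. They were 1 of 41 members, 1 of 24 partners and regulators and 2 of 19 genes of antigen presentation and interferon response. These shares of 2.44%, 4.17% and 10.5% were under or near the 9.94% of all genes. The response was larger by 0.65 log2 units for PSMC3 (adjusted p = 0.0139), with PSMC3 higher on 3 of 3 siPIAS1 arrays with testosterone than on any siPIAS1 array without it. It was lower by 0.60 for PAAF1 (-0.60, adjusted p = 0.0409), by 0.44 for TAP1 (-0.44, adjusted p = 0.0421) and by 0.87 for HLA-B (-0.87, adjusted p = 0.00526). The PAAF1 call was lost when any of 7 arrays was left out (adjusted p = 0.0672 to 0.111), and the TAP1 call when any of 10 was (0.0508 to 0.114). Groups of 3 arrays were not searched for outlying arrays gene by gene.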

How the results depend on the processing

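Of the 40 calls of single members in the 5 comparisons, 22 were kept under all alternatives run and 0 reversed. The number of members called for testosterone after siPIAS1, 20, was 15 to 23 with 1 array left out. For testosterone after siSCR, 11, it was 22 with array weights and 7 to 17 with 1 array left out. For siPIAS1 without testosterone, 1, it was 2 with scaling to the 75th percentile, 5 with array weights, 2 with only the groups compared and 0 to 3 with 1 array left out. For siPIAS1 with testosterone, 7, it was 12 without background correction, 11 with an offset of 50, 14 with array weights, 3 with only the groups compared and 4 to 12 with 1 array left out. For the difference between both responses, 1, it was 2 with scaling to the 75th percentile, 4 without background correction, 4 with an offset of 50, 4 with the authors' values, 3 with probes detected on all arrays, 4 with undetected signals raised, 4 with the mean of probes, 6 with array weights and 1 to 4 with 1 array left out. The cause of these shifts was not tested. With the replicate number as a block the counts were 18, 9, 1, 7 and 1, in the order given, and PSMD4 (adjusted p = 0.061) and PSMG3 (0.0588) after siPIAS1 and PSMD11 (0.0539) and PSME1 (0.0549) after siSCR were lost. The labels do not say whether the numbers pair the samples. A slide block was not run because the file headers give no slide, and the difference between both responses has no fit with only the groups compared. PSMB9, PSMD9 and PSMB8 with testosterone lie near the detection limit.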
